A study of Mus musculus with 6 samples.

Results

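The miRNAs described here are those named miR-297, miR-466, miR-467 or miR-669 on a mouse miRNA array. Every name on the array that begins with one of these 4 family names, whatever letter or arm followed, was taken as a member. This gave 61 of 1881 mouse miRNAs, carried by 162 probes and 1830 spots, and all 61 also had a row in the deposited value table. The arrays were hybridised with total RNA from the left ventricle of male C57BL/6 mice, 3 control samples from mice given vehicle and 3 from mice given sunitinib, a tyrosine kinase inhibitor used against cancer. No dose, duration, age or genetic change is given for either group in the sources used here. Whether each sample is a separate mouse is not stated, and the p-values therefore rest on a spread among samples that may be technical.

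The 4 families are best known from a cluster of miRNA hairpins inside an intron of Sfmbt2, a gene for a Polycomb group protein. Sfmbt2 is imprinted and is transcribed from the paternal allele in extraembryonic tissue, and its miRNA cluster is known for its role in the placenta. A mature miRNA guides Argonaute proteins to messenger RNAs mainly through its seed, bases 2 to 8 from the 5′ end. In the RefSeq table of assembly GRCm38.p6, 71 of 81 hairpin genes of these families lay within the bounds of Sfmbt2 and 10 lay elsewhere. Of the 61 members, 49 had every hairpin within Sfmbt2, 3 had hairpins both inside and outside, 8 had none inside, and 1, miR-466a-5p, was not matched by name. The name of the cluster therefore covers most but not all of the members. The scanner files map probes of 32 members to the mm9 genome, 31 of them to chromosome 2, and leave 29 members unmapped.

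Each member is read by 1 to 4 short DNA probes that pair with the 3′ part of the miRNA, or in miR-467g with up to all 21 bases. Probes of 1 member differ in length by a base or a few. The probes of the 8 members that were detected are shown because they have a feature in common. Probes are written 5′ to 3′ as the scanner files give them, and capitals mark the longest stretch in which 2 bases alternate, G with T or C with A. For each member the longest probe is shown, except for miR-669p-3p, where the probe with the highest mean is shown.
miR-466f-3p: gtgtgtaTGTGTGTGTG
miR-466h-3p: GTGTGTGTGTGcgt
miR-466i-3p: tagtgtgtaTGTGTGTGTG
miR-466i-5p: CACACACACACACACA
miR-466q: acgtaTGTGTGTGTGTG
miR-467f: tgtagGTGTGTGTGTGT
miR-669c-3p: tttactTGTGTGTGTGTG
miR-669p-3p: atacGTGTGTGTGTGTat

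Probes of members that were detected on no array are shown for contrast. The first has a stretch as long as the shortest among the detected, and the others have shorter ones.
miR-669f-3p: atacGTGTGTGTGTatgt
miR-467g: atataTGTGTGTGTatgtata
miR-669a-3-3p: atacaTGTGTGTGTatgttat
miR-466a-5p: tatgtacatgtACACACACAt
miR-297a-3p: tatgggtaTGTGTGTatgt
miR-467a-5p: cgcatatACAtgcaggca

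RefSeq (GRCm38.p6) held mature sequences for 7 of the 61 members, of which 3 were detected. In these lines capitals mark the seed.
miR-466i-3p: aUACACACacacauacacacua
miR-466q: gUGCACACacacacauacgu
miR-467f: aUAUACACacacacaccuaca
The 7 members had 7 different seeds, so no 2 of them fall in one seed group. The longest probe of miR-466i-3p pairs with the last 19 of 22 bases, that of miR-466q with the last 17 of 20 and that of miR-467f with the last 17 of 21. The first 3, 3 and 4 bases, and with them the start of the seed, are thus not read by the probe.

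Few of these miRNAs were detected in the left ventricle, and those detected were the same in every sample. The scanner software called 8 of the 61 members detected on each of the 6 arrays, control and sunitinib alike, and the other 53 on no array. By family, 5 of 23 miR-466 members, 1 of 12 miR-467 members, 2 of 23 miR-669 members and 0 of 3 miR-297 members were detected. By arm, 5 of 26 members named 3p and 1 of 25 named 5p were detected, with 2 of 10 whose name gives no arm. The share of 13.1% compares with 15.4% to 16.5% of the other 1820 miRNAs, by array. Among those others, 259 were detected on all arrays and 65 on some arrays only.

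Of the 8 detected members, 4 have no hairpin within Sfmbt2. RefSeq places the hairpin of miR-466i-3p and miR-466i-5p on chromosome 13 within the bounds of Cdk13, which encodes a cyclin-dependent kinase. That of miR-466q lies on chromosome 3 within Tnik, a kinase gene, and that of miR-467f on chromosome 11 within Fxr2, an RNA-binding protein gene. miR-466h-3p, miR-669c-3p and miR-669p-3p have all their hairpins within Sfmbt2, and miR-466f-3p has 3 of 4 there. Of the 8 members with no hairpin within Sfmbt2, 4 were detected, against 3 of the 49 with every hairpin inside it. Among these 8 the longest alternating stretch in the probes was 10 to 16 bases in the detected and 5 to 9 in the others. The 3 detected members inside Sfmbt2 had 11 or 12. Location and repeat therefore cannot be told apart here, and neither was tested. Only 3 detected members have probes mapped in the scanner files. The longest probe of miR-669c-3p maps to chr2:10430991-10431007, the probe shown for miR-669p-3p to chr2:10410800-10410817 and chr2:10418181-10418198, and the longest probe of miR-466i-3p to chr13:17839390-17839407, all in mm9. The files give no strand for these positions, and the spans of miR-669c-3p and miR-466i-3p are a base shorter than the probes.

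The detected members shared the long 2-base repeat in their probes. The longest stretch was 10 to 16 bases in the 8 detected members, with a median of 12, and 3 to 10 bases in the other 53, with a median of 6. In 7 of the 8 the probe alternates G and T and so pairs with a CA repeat in the RNA, and in 1, miR-466i-5p, it alternates C and A and pairs with a UG repeat. Of 9 members with a stretch of at least 10 bases 8 were detected, and of 52 with a shorter one 0 were. The value of 10 bases was chosen after the values were seen, so the split is a description. The exception, miR-669f-3p, has a stretch of 10 bases, as have miR-466f-3p and miR-466i-3p among the detected. Its probe had 1.11% of spots well above background, against 76.2% and 62.9% for theirs (mean of 6 arrays).

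Probe length and base composition overlapped between detected and other members. The probes that stood for the miRNAs were 14 to 19 bases long in the 8 detected members, with a median of 17, and 15 to 22 bases in the other 53, with a median of 18. Their share of G and C was 38.9% to 57.1% with a median of 47.1% in the detected, and 22.7% to 53.3% with a median of 38.9% in the others. The part of GC content in detection was not tested.

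Long stretches of this kind are rare on the array outside these families. A stretch of at least 10 bases was present in 0.585% of all 1881 miRNAs, in 14.8% of the members and in 2 of the 1820 others. The motif GUGUGUG or ACACACA, searched in the RNA that each probe pairs with and in the RefSeq mature sequence, and not on the other strand, was held by 31 of the 61 members (50.8%) and by 9 of the 1820 others (0.495%). Of these 31 members 8 were detected on all arrays, and of the 9 others 2 were, miR-574-5p and miR-1187. Below a stretch of 7 bases, 14.2% of 1808 other miRNAs were detected on all arrays.

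Other miRNAs with a long stretch of alternating C and A were miR-574-5p with 11 bases, miR-3082-5p with 10, and miR-1187 and miR-32-3p with 9. Their sequences are given for comparison with miR-466i-5p, with the seed in capitals, from RefSeq (GRCm38.p6).
miR-574-5p: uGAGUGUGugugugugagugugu
miR-3082-5p: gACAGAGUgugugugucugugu
miR-1187: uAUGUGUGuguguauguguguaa
miR-32-3p: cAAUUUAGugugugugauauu
The scanner software called miR-574-5p and miR-1187 detected on 6 of 6 arrays and miR-3082-5p on 5, while miR-32-3p was detected on 0. The members miR-466a-5p and miR-466p-5p, with a stretch of 9 bases of this kind, were detected on 0 of 6 arrays. Outside the families, miR-574-3p and miR-1946a have probes that alternate G and T over 7 bases. miR-574-3p was detected on 6 of 6 arrays, with 45.2% of spots of its longest probe well above background (mean of 6 arrays), and miR-1946a on 0. A stretch shorter than 10 bases thus did not preclude detection outside the families.

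**Figure D1:**
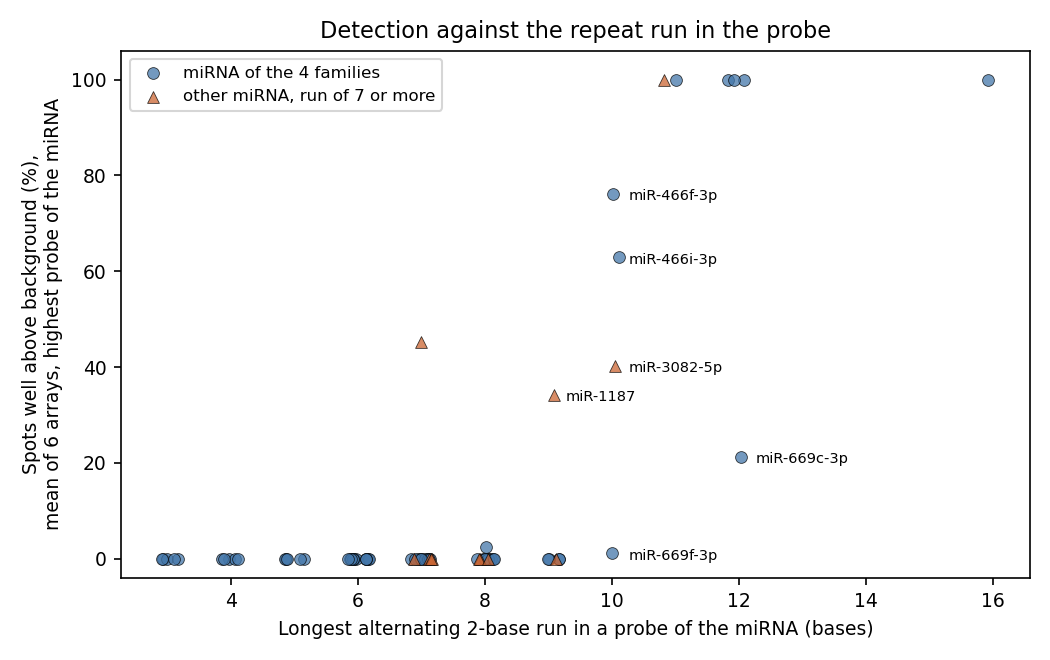
Share of spots well above background (vertical axis, percent, mean of 6 arrays, highest probe of each miRNA) against the longest alternating 2-base stretch in a probe (horizontal axis, bases, points spread slightly sideways) for the 61 members (circles) and for 12 other miRNAs with a stretch of at least 7 bases (triangles). All members below 10 bases lie at or below 2.38%, while 8 of the 9 members from 10 bases up lie between 21.2% and 100% and miR-669f-3p lies at 1.11%.

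Probes of one miRNA that differ by a single base show how narrowly detection was set. For miR-466q the probe of 16 bases had 0% of its spots well above background on every array and the probe of 17 bases had 100%. Their alternating stretches are 11 and 12 bases long. For miR-466i-3p the probe of 18 bases, with a stretch of 9, had 0% and the probe of 19 bases, with a stretch of 10, had 62.9%.

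The 4 probes of miR-466f-3p run from 14 to 17 bases, with stretches of 7, 8, 9 and 10 bases. Their shares of spots well above background were 0%, 0%, 7.14% and 76.2%. For miR-669c-3p the shares were 0% for the probe of 17 bases and 21.2% for the probe of 18 bases, with stretches of 11 and 12. In each of these pairs the longer probe also holds the longer stretch, so length and repeat cannot be told apart there.

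For miR-466h-3p both probes hold a stretch of 11 bases, and 80.7% and 100% of spots were well above background at 13 and 14 bases. For miR-467f the shares were 90.0% and 100%, for miR-466i-5p 100% for both probes, and for the 4 probes of miR-669p-3p, all with a stretch of 12, from 95.2% to 100%. Among the others, miR-467g was at 0% with 4 probes of 18 to 21 bases, each with a stretch of 9. The same held for miR-669a-3-3p with 4 probes of 19 to 22 bases.

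The comparison of sunitinib with vehicle asks which miRNAs of the heart change under the drug, and none of these members passed the test. Levels are log2 values of the scanner's background-subtracted signal after scaling of the arrays, and a member entered the test if its probe had at least 50% of spots well above background on each of the 3 arrays of either group. This was so for 7 of the 61 members, each on all 6 arrays, so no member entered through 1 group alone. miR-669c-3p, called detected by the scanner software, did not meet it. By limma 3.58.1 over 237 tested miRNAs, 0 of the 7 passed a Benjamini-Hochberg adjusted p of 0.05, where 3.38% of all tested miRNAs did, 1.69% higher and 1.69% lower with sunitinib. At an unadjusted p under 0.05 there was 1 of 7, miR-466h-3p, against 19.0% of all tested, or 10.5% with sunitinib higher. Changes are given below as sunitinib minus control on the log2 scale, and array values in the order of replicates 1, 2 and 3. The hairpin given with a member is the one that RefSeq lists under its name. Whether its probe also read other RNA with the same repeat was not tested.

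miR-466h-3p, from a hairpin within Sfmbt2, had levels of 4.49, 4.41 and 4.71 with vehicle, against 4.78, 4.93 and 4.74 with the drug. Every sunitinib array lay above every control array, by the narrowest margin between control replicate 3 and sunitinib replicate 3. Groups that do not overlap occurred in 1 of the 7 members and in 27.4% of all tested miRNAs, or 18.1% with sunitinib higher. The means were 4.54 ± 0.155 and 4.82 ± 0.10 (SD, n = 3 each), and the change was 0.28 (SE 0.10; adjusted p = 0.233 by limma). The 95% interval ran from 0.034 to 0.52, or 1.02-fold to 1.43-fold. The shorter probe of this miRNA had a change of 0.17.

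miR-466i-5p, by name an arm of the Cdk13 hairpin and read by a probe for a UG repeat, had levels of 6.90, 6.66 and 6.73 with vehicle. With the drug they were 6.29, 6.78 and 6.75. Sunitinib replicate 1 was low and the other sunitinib arrays lay within the control range. Its mean was 6.76 ± 0.13 with vehicle and 6.61 ± 0.28 with the drug (SD, n = 3 each). The change was -0.15 (SE 0.15; adjusted p = 0.632 by limma), with a 95% interval from -0.51 to 0.21. Without sunitinib replicate 1 it was 0.0040. The other arm, miR-466i-3p, had levels of 3.53, 3.65 and 3.75 with vehicle, against 3.56, 3.83 and 3.60 with the drug, so its groups overlapped. Its change was 0.018 (SE 0.099; adjusted p = 0.922 by limma; 95% interval -0.22 to 0.26).

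miR-467f, from the hairpin within Fxr2, had levels of 4.91, 4.90 and 5.004 with vehicle, against 4.79, 5.23 and 5.10 with the drug. The sunitinib arrays lay on both sides of the control arrays. Its change was 0.10 (SE 0.12; adjusted p = 0.681 by limma; 95% interval -0.18 to 0.39). It was 0.0071 without sunitinib replicate 2 and 0.23 without sunitinib replicate 1. miR-466q, from the hairpin within Tnik, had 4.66, 4.55 and 4.81 with vehicle, against 4.51, 4.89 and 4.77 with the drug. Here too the sunitinib arrays were both the lowest and the highest, and the change was 0.048 (SE 0.12; adjusted p = 0.882 by limma; 95% interval -0.24 to 0.34).

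miR-669p-3p, from a pair of hairpins within Sfmbt2, had levels of 4.27, 4.13 and 4.41 with vehicle, against 4.18, 4.51 and 4.47 with the drug. The groups overlapped through sunitinib replicate 1. Its change was 0.11 (SE 0.12; adjusted p = 0.646 by limma; 95% interval -0.17 to 0.40), and its 4 probes had changes from 0.11 to 0.24. It was 0.044 without control replicate 2, 0.053 without sunitinib replicate 2, 0.073 without sunitinib replicate 3, 0.18 without control replicate 3 and 0.22 without sunitinib replicate 1. miR-466f-3p had 3.90, 3.62 and 3.80 with vehicle, against 3.70, 3.96 and 3.89 with the drug, with overlapping groups. Its change was 0.074 (SE 0.11; adjusted p = 0.741 by limma; 95% interval -0.18 to 0.33).

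miR-669c-3p, outside the test, had 3.10, 3.14 and 3.18 with vehicle, against 3.12, 3.24 and 3.46 with the drug. Its groups overlapped, and between 7.14% and 33.3% of its spots were well above background on an array. Where detection by the scanner software decided which miRNAs were tested, it entered with a change of 0.14 (SE 0.10; adjusted p = 0.542 by limma).

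**Figure D2:**
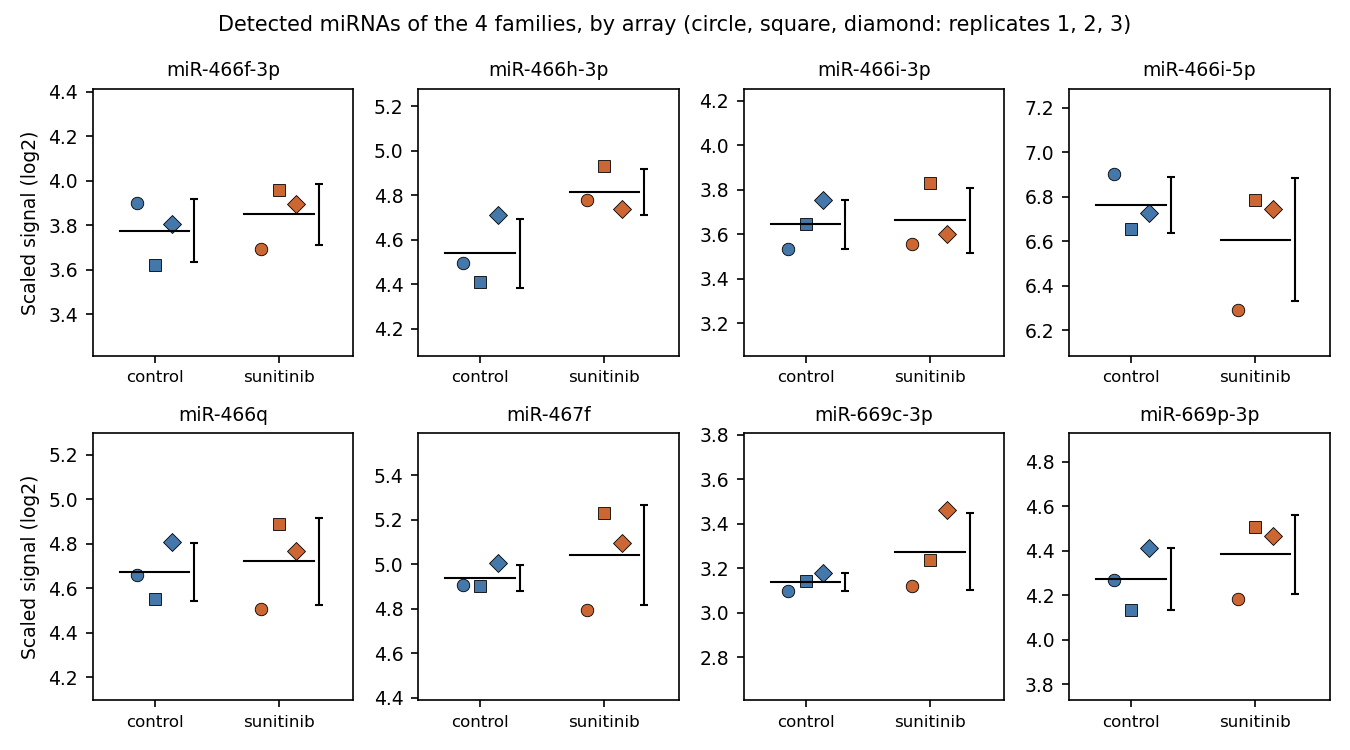
Scaled signal (log2, vertical axes, each spanning the same range of 1.2 around its own centre) of the 8 detected members in 3 control and 3 sunitinib arrays, with a marker for each replicate, a line at the group mean and an error bar of 1 SD. Only miR-466h-3p has all sunitinib arrays above all control arrays, from 4.74 up against 4.71 down, and miR-466i-5p has a low sunitinib replicate 1 at 6.29.

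Over the 7 tested members 6 changes were above 0 and 1 was below, with a median of 0.074. Over all 237 tested miRNAs 52.7% were above 0, with a median of 0.019. The members share arrays and repeat sequence and are not independent of each other. The 95% intervals of the 7 members lay between 0.70-fold and 1.43-fold of the control level. miR-574-5p, the tested miRNA outside these families that holds the motif, had a change of -0.16 (SE 0.16; adjusted p = 0.646 by limma; 95% interval -0.56 to 0.24).

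**Figure D3:**
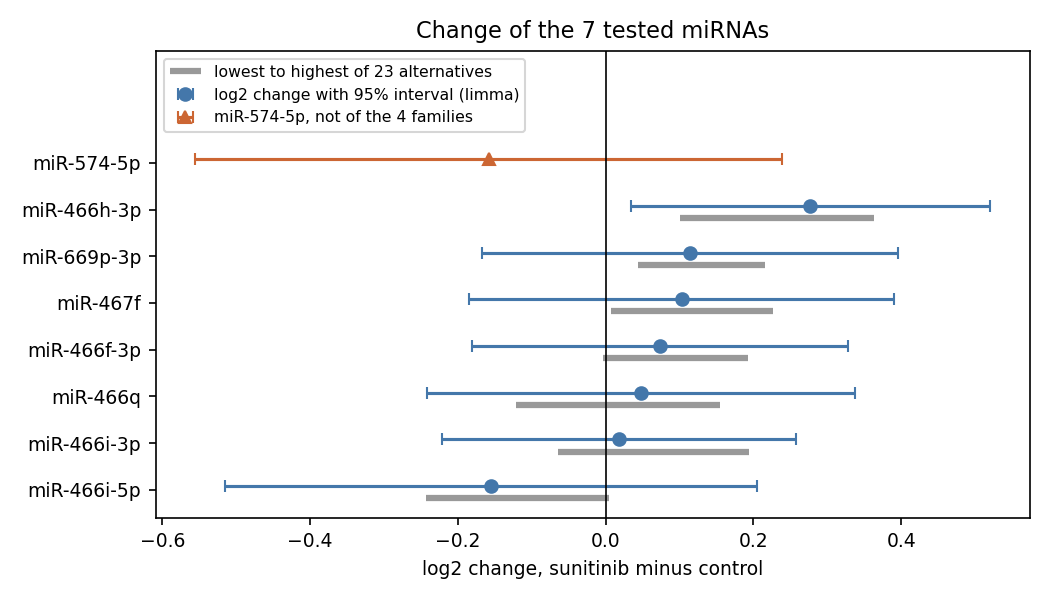
Change of the 7 tested members and of miR-574-5p, as log2 sunitinib minus control (horizontal axis), with the 95% interval from limma as thin bars and the lowest to highest value over 23 alternative settings as thick grey bars for the members. The interval of miR-466h-3p, from 0.034 to 0.52, is the only 1 of the 8 that does not cross 0.

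The arrays lay on 1 slide in 2 rows, and the row that held both groups had 3 control arrays and sunitinib replicate 3. Within that row the changes were 0.20 for miR-466h-3p, 0.20 for miR-669p-3p, 0.16 for miR-467f, 0.12 for miR-466f-3p, 0.094 for miR-466q, -0.015 for miR-466i-5p and -0.044 for miR-466i-3p. With the row as a block the changes were the same, since the other row held no control array. That fit therefore adds no further check, and with 1 sunitinib array it cannot decide a call.

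The members that pair with G and T probes differed from miR-466i-5p in the highest array, and only in part in the lowest. Of the 6 tested members with such probes, 0 were highest in control replicate 1 and 2 were lowest in sunitinib replicate 1. Without scaling these counts were 2 and 0. miR-466i-5p was highest in control replicate 1 and lowest in sunitinib replicate 1, and so were miR-574-5p, miR-3082-5p and miR-1187, the other detected miRNAs whose probes alternate C and A over at least 9 bases. miR-574-5p had 5.68, 5.39 and 5.27 with vehicle, against 4.99, 5.45 and 5.43 with the drug. miR-3082-5p had 4.10, 3.45 and 3.28 against 2.53, 3.52 and 3.50, and miR-1187 had 3.63, 3.53 and 3.23 against 3.03, 3.62 and 3.54. Both were well above background on only 2 of 6 arrays and were not tested. Their values in sunitinib replicate 1 lay below 3.32, the lowest signal well above background on that array, and are not resolved. Of all 237 tested miRNAs 5.06% were highest in control replicate 1 and 30.4% were lowest in sunitinib replicate 1. These shares moved with the scaling, from 5.06% to 26.2% and from 13.5% to 32.9% over this scaling, the deposited table, no scaling, quantile, median and all-probe percentile. The deposited value table and quantile normalization gave the same highest and lowest array for all 4. Sunitinib replicate 1 was lowest for 2 of 4 without scaling and for 3 of 4 with the percentile over all probes, and control replicate 1 was highest for 3 of 4 with median scaling.

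Sunitinib replicate 2 was the highest array for all 6 tested members whose probes alternate G and T, and for 33.8% of all tested miRNAs. This depended on the scaling. With median scaling it was highest for 6 of 6 members and 34.6% of all tested miRNAs, and in the deposited table for 4 of 6 and 18.1%. It was highest for 1 of 6 members without scaling, with quantile normalization and with the percentile over all probes, where the shares of all tested miRNAs were 7.17%, 19.0% and 9.28%. Both groupings were made after the values were seen and were not tested.

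**Figure D4:**
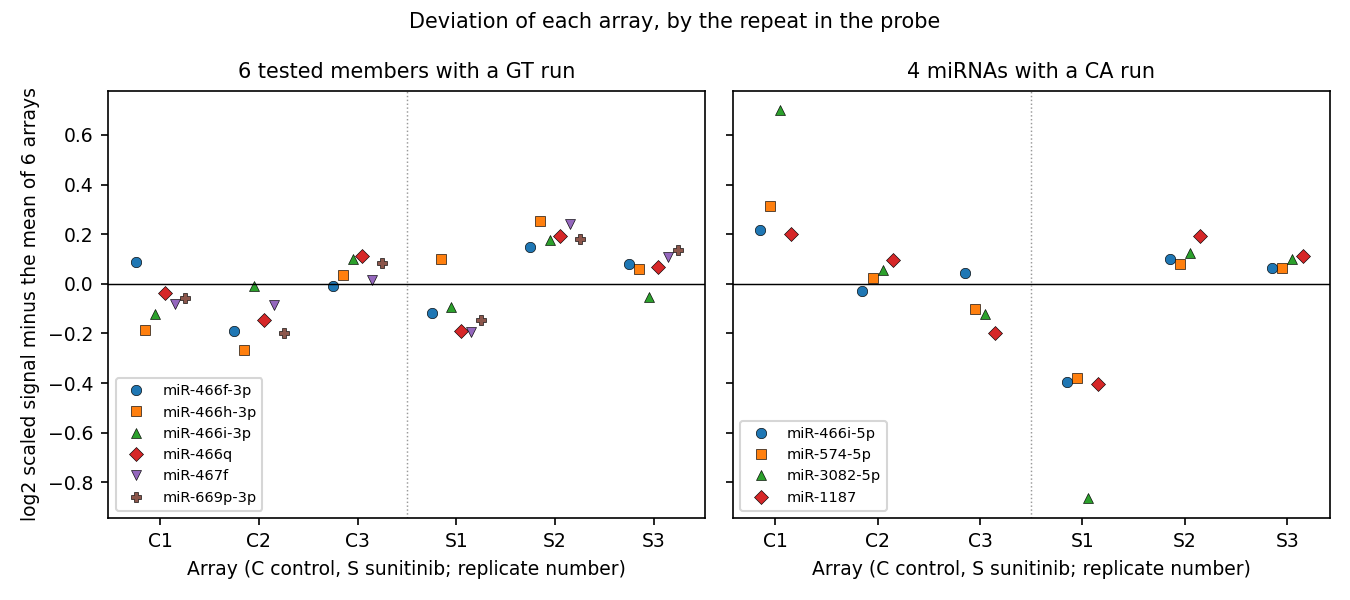
Level of each array minus the mean of 6 arrays (log2, vertical axis) for the 6 tested members with alternating G and T in their probes (left) and for miR-466i-5p and 3 other miRNAs with alternating C and A (right), over control (C) and sunitinib (S) replicates. On the right all 4 are highest in C1 and lowest in S1 (median deviation 0.27 and -0.40), and on the left all 6 are highest in S2 (0.19), though without scaling 2 of the 4 are lowest in S1 and 1 of the 6 is highest in S2.

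The deposited value table, which holds the authors' log2 values with an unstated offset and centring, also covered the detected members. Its values for miR-466h-3p were 4.34, 4.11 and 4.29 with vehicle, against 4.46, 4.48 and 4.47 with the drug, again without overlap, with a difference of 0.22. The differences were -0.19 for miR-466i-5p, 0.13 for miR-466i-3p, 0.21 for miR-669p-3p and from 0.081 to 0.091 for miR-466f-3p, miR-466q, miR-467f and miR-669c-3p. In a limma fit of these values 0 of the 7 members passed, and the lowest adjusted p by limma, that of miR-466h-3p, was 0.169. The 53 members that were not detected had table values from 2.02 to 2.92, with a median of 2.19, where the medians of the table's columns lay between 2.195 and 2.200. Their differences ran from -0.18 to 0.074 with a median of -0.0035, and 24 of the 53 were above 0. Table values of the detected miR-466f-3p, from 2.47 to 2.78, lay within the range of these undetected members. Those of miR-669c-3p, from 2.82 to 3.10, lay partly within it.

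In the scanner signal the 53 members lay between 0 and 2.85 on the log2 scale, with a median of 0.34, while the lowest probe well above background lay between 3.18 and 3.62 by array. Their levels are therefore not resolved, and no fold is given for them. When all 1881 miRNAs were tested without a filter, 0 of the 61 members passed, and 3 had an unadjusted p under 0.05, against 7.66% of all. These were miR-466h-3p and the undetected miR-467g and miR-669f-3p. With every miRNA of the deposited table tested 4 did, against 9.20% of all, namely miR-466h-3p, miR-466i-3p, miR-466l-3p and miR-669f-3p. miR-669f-3p, from a hairpin within Sfmbt2, had 2.82, 2.68 and 2.57 with vehicle, against 1.48, 2.31 and 2.24 with the drug. The undetected miR-467g went the other way, with 0.64, 0.34 and 0.39 against 0.90, 0.75 and 0.89. No probe of either was well above background on any array.

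The heart muscle miRNAs miR-1a-3p, miR-133a-3p, miR-208a-3p and miR-499-5p were detected on all 6 arrays. So were the endothelial miR-126a-3p and the smooth muscle miR-143-3p and miR-145a-5p, while the liver miR-122-5p and the brain miR-124-3p were detected on 0. The changes of the detected ones among these ran from -0.23 for miR-145a-5p to 0.11 for miR-133a-3p, with a lowest limma adjusted p of 0.211. The software called 288 to 309 miRNAs detected on an array, no spot was saturated, and 9.47% to 10.3% of the 4415 probes were well above background. The number of arrays limits the precision. Of the blood-cell miRNAs, miR-223-3p and miR-142a-3p fell on the sunitinib arrays (log2 change -1.32 and -0.64, limma adjusted p = 0.00086 and 0.020), while the red-cell miR-451a had a change of 0.19 (limma adjusted p = 0.597). Their part in the values of these families was not tested.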

How the data were processed

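Every RNA sample was labelled with Cy3 and read on an array of its own. Per the file headers, the deposited scanner files hold spot intensity on a linear scale, background-subtracted by Agilent Feature Extraction 10.7.1.1 (10.7 in the submitters' processing notes), with genome build mm9. The deposited value table gives the authors' processed signal as log2 values, with an unstated offset and centring. Its columns matched their own arrays (Pearson r of differences between arrays, across miRNAs, from 0.919 to 0.954).

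Control and outlier-flagged spots were left out. The 75th percentile of 393 probes, those well above background on every array, set the scale of an array. Signals were floored at 1 before log2 was taken, and spots of a probe were averaged. Each miRNA was represented by its probe of highest mean. The groups were tested with limma 3.58.1 (R 4.3.3) across 237 miRNAs with Benjamini-Hochberg adjustment. The procedure was also run on simulated data in which miRNAs varied independently of each other, which does not cover members that share a repeat. Alternatives covered the background, scaling, filter and floor, the choice of probes, the variance model, array weights, blocks and each sample left out. Named were all tested or detected members, each with values, and miRNAs with the repeat and tissue markers, with values or by detection only. The members and lists were chosen with earlier results of these data known. Replicate numbers were not taken to pair samples, since same-numbered samples deviated together with r of 0.176, 0.217 and -0.0551 across miRNAs. For samples of different number r ran from -0.306 to 0.250.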

Additional observations from a re-analysis of the deposited data

How the results depend on the processing

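In 23 alternatives for each of the 7 tested members 0 of 161 values passed, and the lowest adjusted p by limma was 0.169, for miR-466h-3p in the deposited table. Testing every miRNA of that table was added after the data were seen. The median change of the 7 tested members, 0.074, ran from 0.0071 without sunitinib replicate 2 to 0.17 with the summed signal. Without a filter the median was -0.037, but over all 61 members, of which 53 were not detected. The SD of the member median between replicates was 0.13. Of the 161 values 9 had the opposite direction. The filters, eBayes with trend and the replicate block cannot alter a member's change, and both fits of the deposited table give equal changes. These settings therefore add nothing on direction. miR-466q had -0.12 with the summed signal and from -0.036 to 0.15 when each sample was left out. miR-466i-3p had -0.010 with array weights, -0.044 with slide row as a blocking term, and from -0.065 to 0.073 with each sample left out. The same omissions gave -0.0032 to 0.15 for miR-466f-3p and -0.24 to 0.0040 for miR-466i-5p, whose direction turned without control replicate 2 and without sunitinib replicate 1. The omissions gave 0.0071 to 0.23 for miR-467f and 0.044 to 0.22 for miR-669p-3p. The cause was not tested. miR-466h-3p stayed above 0 in all 23, including those that cannot alter it, from 0.10 with normexp background correction to 0.36 without control replicate 3. With the replicate number as a block 0 members passed, with a lowest adjusted p of 0.371 by limma, and no call of a member changed. Over all miRNAs the 8 that passed became 1 to 13. Counted by spots in place of the software's call, 7 members were detected on every array in place of 8. The control means of miR-466f-3p and miR-466i-3p, 3.78 and 3.64, lay close to the lowest signal well above background on these arrays, which limits what a change in them could show.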
